A study of Mus musculus with 8 samples.

Results

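The public α-chain clonotypes of endogenous CD8+ T (en-T) cells are T-cell receptors whose α-chain was met again and again in separate mice. A clonotype was defined by the amino acid sequence of its CDR3, the loop formed where a V segment is joined to a J segment, together with the names of both segments. The members were chosen by the measured reads themselves: a clonotype was kept when it had at least 1 read in 6 or more of the 8 mice sequenced. Of 44635 α clonotypes, 138 met this rule, 73 of them in 6 mice, 42 in 7 mice and 23 in all 8 mice. They made up 0.309% of the clonotypes and held 3624 of the 80000 α-chain reads (4.53%). At the other end, 39907 clonotypes (89.4%) were found in 1 mouse only. In the β-chain, the same rule kept 15 of 56147 clonotypes.

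All mice were C57BL/6 females, 6 to 8 weeks old, that carried intradermal B16F10 melanoma and were lymphodepleted on day 3 with cyclophosphamide (CTX) at 300 mg/kg. On day 5 they were given Pmel-1 cells, CD8+ T cells from Thy1.1 donors whose transgenic receptor recognizes gp100, an antigen of melanoma cells, and IL-2 for 3 days from then. The 3 CTXpre mice had no further treatment, and the 5 CTXpre/CD4post mice also received 200 μg of the CD4-depleting antibody GK1.5 on days 10, 17 and 24. On day 25, Thy1.1-negative CD8+ cells were sorted from inguinal lymph nodes and spleen, so the repertoire is that of host cells in lymphoid tissue and not of the tumor. Each mouse gave 1 α-chain library, and each of the 8 libraries held exactly 10000 reads after the authors' down-sampling. A value in reads is thus a share of a fixed total. Presence meant 1 read or more, so it can rest on a lone read, and 0 reads cannot show that a clonotype was absent from the mouse. The amplification used no molecular identifiers, so intervals cover counting error only. In the CTXpre/CD4post group, 18 of the 28 α clonotypes that had 10 or more reads in replicate 1 and none in the 6 other mice were also found in replicate 2, against 0 to 2 when any other mouse took the place of replicate 2. How these clonotypes came to be in both libraries was not tested, so a read in replicate 1 or 2 may not be independent evidence of that mouse, and the tests between groups of per-mouse measures are also given without replicate 2. Of the 73 members found in exactly 6 mice, 61 would fall short of the rule without replicate 2, and 44 to 60 would without any other single mouse.

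An α-chain is made by joining 1 of many TRAV segments to 1 of many TRAJ segments on chromosome 14. Nucleases may trim the ends, the opened hairpins can leave palindromic letters, and terminal transferase can add letters that no segment encodes. A receptor that needs few added letters, or that can be spelled by several nucleotide sequences, is known to be able to arise independently in many animals. The invariant TRAV11–TRAJ18 chain of natural killer T cells is the best known mouse example.

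The germline ends are shown first, because the public chains are best read against them. Each is given in the GRCm38 (mm10) build on the plus strand, with the V end running from the conserved cysteine codon to the last letter of the segment and the J start running from its first letter to the conserved phenylalanine or tryptophan codon. TRAV14N-1 ends at chr14:53167166-53167178 and TRAJ22 starts at chr14:54197248-54197276. The 3 nucleotide forms of the most abundant public clonotype, the 14-residue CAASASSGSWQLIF, follow them. Capitals in a form mark the letters that belong neither to the exact match with a V end of the family nor to the exact match with the J start.
TRAV14N-1 end: tgtgcagcaagtg
TRAJ22 start: catcttctggcagctggcaactcatcttt
TRAV14N-1–TRAJ22, form 1: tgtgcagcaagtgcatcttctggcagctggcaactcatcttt
TRAV14N-1–TRAJ22, form 2: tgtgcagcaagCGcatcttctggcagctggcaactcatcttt
TRAV14N-1–TRAJ22, form 3: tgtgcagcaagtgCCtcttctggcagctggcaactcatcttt

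In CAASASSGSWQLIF, form 1 is the whole V end, 13 letters, followed by the whole J start, 29 letters, with nothing lost and nothing added. It held 93.8% of the 422 reads of this clonotype and was found in all 8 mice. Form 2 had 22 reads in 6 mice and form 3 had 4 reads in 2 mice, and each has 2 capitals and differs from form 1 by 1 base. The leading form of 20 of the 138 public clonotypes was such a junction of whole ends, as was that of 306 of the 44497 other clonotypes.

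The second most abundant public clonotype, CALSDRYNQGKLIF, is shown for the opposite reason: its amino acids are spelled in 7 ways and each of them needs letters that neither germline end holds. It joins TRAV12N-3, whose end lies at chr14:53241231-53241244, to TRAJ23, whose start lies at chr14:54196081-54196109.
TRAV12N-3 end: tgtgctctgagtga
TRAJ23 start: tgaattataaccaggggaagcttatcttt
TRAV12N-3–TRAJ23, form 1: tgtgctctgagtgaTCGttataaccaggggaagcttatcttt
TRAV12N-3–TRAJ23, form 2: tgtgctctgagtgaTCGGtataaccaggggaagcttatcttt
TRAV12N-3–TRAJ23, form 3: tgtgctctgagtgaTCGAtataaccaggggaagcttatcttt
TRAV12N-3–TRAJ23, form 4: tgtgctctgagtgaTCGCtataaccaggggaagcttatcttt
TRAV12N-3–TRAJ23, form 5: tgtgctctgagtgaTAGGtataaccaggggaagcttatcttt
TRAV12N-3–TRAJ23, form 6: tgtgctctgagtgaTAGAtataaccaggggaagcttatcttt
TRAV12N-3–TRAJ23, form 7: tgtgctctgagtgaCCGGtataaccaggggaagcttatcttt

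Forms 1, 2 and 3 had 48, 40 and 38 reads and each was found in all 8 mice. Forms 4 to 7 had 14, 12, 3 and 3 reads in 5, 6, 3 and 2 mice. All 7 keep the whole V end of 14 letters, and they differ only within the 4 letters that follow it. As many as 6 forms of this chain were found within the same mouse.

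The leading forms of the other members among the 10 most abundant are shown because the comparison of groups below turns on several of them, and the forms of TRAV11D–TRAJ18 because this is the chain of a known cell type. TRAV12N-3–TRAJ33 is added as the 10-residue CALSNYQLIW, whose reads did not overlap between groups.
TRAV7D-2–TRAJ9, form 1: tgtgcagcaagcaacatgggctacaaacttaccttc
TRAV19–TRAJ56, form 1: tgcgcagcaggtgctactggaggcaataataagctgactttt
TRAV7N-5–TRAJ40, form 1: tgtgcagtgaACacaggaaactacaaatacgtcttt
TRAV6N-7–TRAJ30, form 1: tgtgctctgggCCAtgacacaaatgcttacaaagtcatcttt
TRAV3N-3–TRAJ22, form 1: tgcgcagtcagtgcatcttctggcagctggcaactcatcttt
TRAV6D-6–TRAJ30, form 1: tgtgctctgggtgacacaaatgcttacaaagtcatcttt
TRAV12N-3–TRAJ7, form 1: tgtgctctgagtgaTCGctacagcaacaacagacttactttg
TRAV16N–TRAJ22, form 1: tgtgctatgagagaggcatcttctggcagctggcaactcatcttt
TRAV12N-3–TRAJ33, form 1: tgtgctctgagcaactatcagttgatctgg
TRAV11D–TRAJ18, form 1: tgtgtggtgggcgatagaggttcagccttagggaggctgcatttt
TRAV11D–TRAJ18, form 2: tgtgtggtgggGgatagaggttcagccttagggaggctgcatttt

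In 6 of the 10 most abundant members, the leading form needs no letter outside the germline ends. TRAV7N-5–TRAJ40 needs 2 letters, and TRAV12N-3–TRAJ23, TRAV6N-7–TRAJ30 and TRAV12N-3–TRAJ7 need 3 each. In TRAV6N-7–TRAJ30 the form shown ties with another form of 23 reads in 6 mice that needs 2 letters, and such a tie in reads was found in 9 of the 138 members. In the leading form of TRAV7D-2–TRAJ9, 4 letters could have come from either end, and in that of TRAV6D-6–TRAJ30, 3 letters could.

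Public clonotypes held fewer unassigned nucleotides than the other clonotypes of the same mouse. Unassigned nucleotides are the letters between the V and J alignments as the authors' aligner placed them, JStart minus VEnd minus 1, and a value below 0 means that the alignments overlap. In the 8 mice, the mean over public forms lay between -1.50 and -1.06 and the mean over all other forms between 1.41 and 1.56. The difference, public minus other, was -2.76 ± 0.187 (SD, n = 8 mice), below 0 in 8 of 8 mice (exact two-sided sign-flip test, p = 0.00781, the smallest that 8 mice allow, and 0.0104 after Benjamini-Hochberg adjustment over the 4 tests of this kind). The mice share the members, so here and in each sign-flip test below they are not 8 independent sets of clonotypes. It was -2.61 ± 0.0954 (SD, n = 3) in the CTXpre mice and -2.84 ± 0.175 (SD, n = 5) in the CTXpre/CD4post mice, which overlapped (two-sided exact Mann–Whitney U-test with p = 0.0714). Without CTXpre/CD4post replicate 2, and with members required in 6 of the 7 mice left, the same values were -2.65 ± 0.154 (SD, n = 3) and -2.94 ± 0.235 (SD, n = 4), with p = 0.229 in the exact test. Public clonotypes are also more abundant than others, and among clonotypes of 2 to 5 reads in the mouse the difference was -2.04, again below 0 in 8 of 8 mice.

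The exact match to the germline ends, an analysis chosen after the data were seen, does not depend on where the aligner stopped. By this measure a public form had 1.37 to 1.84 letters outside the ends in the 8 mice and an other form had 3.08 to 3.16, a difference of -1.60, below 0 in 8 of 8 mice (exact sign-flip test, p = 0.00781). The match runs on where an added letter happens to equal the trimmed germline letter, which lowers the count, and stops at the first mismatch within a segment, which raises it, so it can err either way. Fewer letters were also missing from the segments. Public forms had lost a mean of 1.78 letters of the V end and 2.68 of the J start, against 2.25 and 3.25 in all other forms.

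Letter counts fell steadily with the number of mice at the low end of the scale and less clearly at the high end. The leading form of a clonotype found in 1 mouse had a mean of 3.47 letters outside the germline ends, that of a clonotype in 2 mice 2.09, in 3 mice 1.70, in 4 mice 1.37 and in 5 mice 1.18. Among the members the means were 1.21 for 6 mice, 0.69 for 7 mice and 1.43 for 8 mice. The share of clonotypes whose leading form needed no such letter rose from 8.74% in 1 mouse to 44.9% in 5 mice, and was 49.3%, 54.8% and 52.2% in 6, 7 and 8 mice. Across all members it was 51.4% (71 of 138), against 10.3% of the other clonotypes. Of the remaining 67 members, 45 needed 1 or 2 letters, 22 needed 3 or more, and the most was 6. Over all forms, not the leading one alone, the share with no such letter was 8.79% for 1 mouse and 22.6% for 5. For 6, 7 and 8 mice it was 22.6%, 26.5% and 19.6%. The mean letters over all forms were 2.11, 1.72 and 2.34 for 6, 7 and 8 mice, against 3.47 for 1 mouse and 2.22 for 2. The leading form was picked from a mean of 4.22 forms for 8 mice but 1.01 for 1 mouse, and it gives the wider contrast. These are descriptions of clonotypes sorted by the rule's own count of mice.

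**Figure D1:**
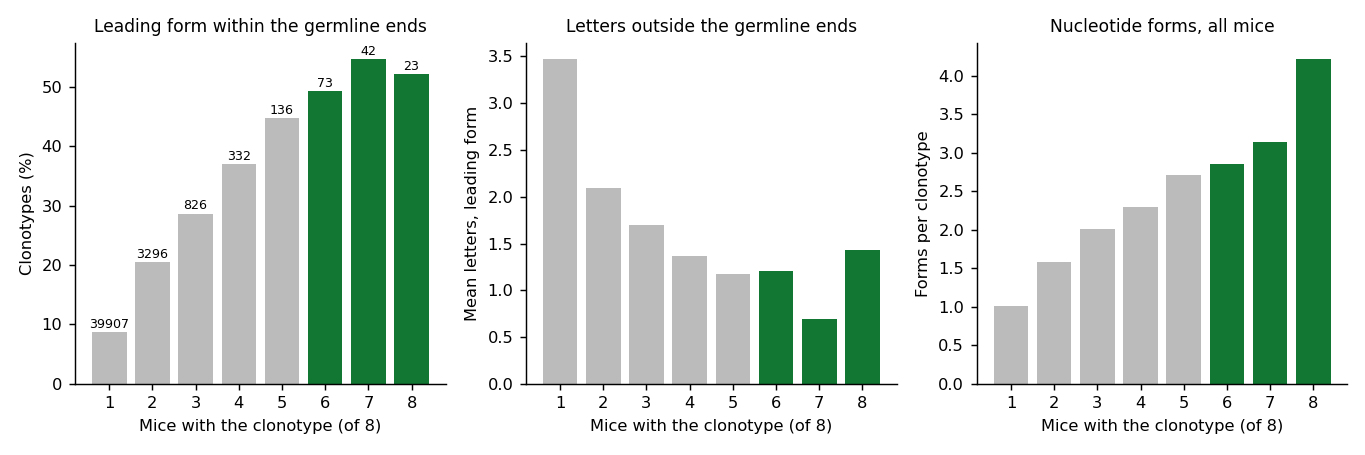
Bars give, for α clonotypes found in 1 to 8 mice, the percent whose leading nucleotide form lies wholly within the germline V and J ends (left, with the number of clonotypes above each bar), the mean number of letters outside those ends in the leading form (middle) and the nucleotide forms per clonotype over all mice (right). Green bars are the public clonotypes of 6 or more mice, where the left share is 49.3% to 54.8% against 8.74% in clonotypes of 1 mouse. Over all forms in place of the leading one, which is not drawn, the share is 19.6% to 26.5% against 8.79%.

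Clonotypes just inside and just outside the rule were much alike. The 73 clonotypes of exactly 6 mice had a median of 13 reads over all libraries (7 to 41) and the 136 of exactly 5 mice a median of 10 reads (5 to 101). Their leading forms had 1.21 and 1.18 letters outside the germline ends, and they had 2.85 and 2.71 nucleotide forms each.

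The leading form of 7 public clonotypes had 3 or more unassigned nucleotides. The 17-residue TRAV12N-3–TRAJ4 clonotype, in all 8 mice, and the 16-residue TRAV16N–TRAJ37 clonotype, in 6 mice, had 4 each, as did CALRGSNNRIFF (TRAV12N-3–TRAJ31, in 6 mice). The 15-residue TRAV12N-3–TRAJ23 clonotype, in 8 mice, and a 16-residue TRAV16N–TRAJ45 clonotype, in 6 mice, had 3 each, a value shared by the 15-residue TRAV19–TRAJ57 and the 14-residue TRAV7-5–TRAJ30 clonotypes. The leading forms of 5 of them are shown as examples of chains found in many mice in spite of such letters.
TRAV12N-3–TRAJ4, form 1: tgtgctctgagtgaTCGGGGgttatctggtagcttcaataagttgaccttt
TRAV16N–TRAJ37, form 1: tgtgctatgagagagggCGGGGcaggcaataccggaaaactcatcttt
TRAV12N-3–TRAJ31, form 1: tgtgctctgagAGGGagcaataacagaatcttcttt
TRAV12N-3–TRAJ23, form 1: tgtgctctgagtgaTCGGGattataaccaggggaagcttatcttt
TRAV16N–TRAJ45, form 1: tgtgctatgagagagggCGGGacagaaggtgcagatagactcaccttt

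Over all public forms with an untrimmed end and at least 1 letter outside the ends, 168 of 224 (75%) had, next to an untrimmed end, the letter complementary to its last one, as a palindrome would, and 13730 of 22339 (61.5%) had it among all other forms. This is a count of matching letters, and how each letter arose was not tested.

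Public clonotypes were spelled by more nucleotide sequences than the others. Within a mouse, a public clonotype had a mean of 1.34 to 1.55 nucleotide forms and an other clonotype 1.01 to 1.02, a difference of 0.428 ± 0.0745 (SD, n = 8 mice), above 0 in 8 of 8 mice (exact two-sided sign-flip test, p = 0.00781, adjusted p = 0.0104). Among clonotypes of 2 to 5 reads the difference was 0.403, above 0 in 8 of 8 mice. It did not differ between the groups beyond their spread, at 0.458 ± 0.0485 (SD, n = 3) in CTXpre and 0.410 ± 0.0866 (SD, n = 5) in CTXpre/CD4post mice (exact Mann–Whitney U-test, p = 0.393). Without CTXpre/CD4post replicate 2, p was 0.229 in the exact test, which allows none under 0.0571 with 3 mice against 4.

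Over all mice, the 138 public clonotypes had 437 nucleotide forms, from 1 to 8 each with a mean of 3.17. Only 8 had a lone form, 22 had 5 or more, and 114 had more than 1 form within at least 1 mouse. The leading form held a median of 68.2% of a member's reads, from 25% to 100%, and under 50% in 24 members. Of the 299 forms that were not the leading form, 145 were found in 2 or more mice and 110 had 1 read. Of these, 248 differed from the leading form by 1 base. In 243 of these 248 (98.0%) the base that differed lay at the join or within 3 letters of it, a window that covered a mean of 19.1% of the letters of the CDR3. The member with the most forms, 8, was CALSDRYSNNRLTL, which joins TRAV12N-3 to TRAJ7. It was found in all 8 mice, and its leading form held 63.6% of its 55 reads.

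**Figure D2:**
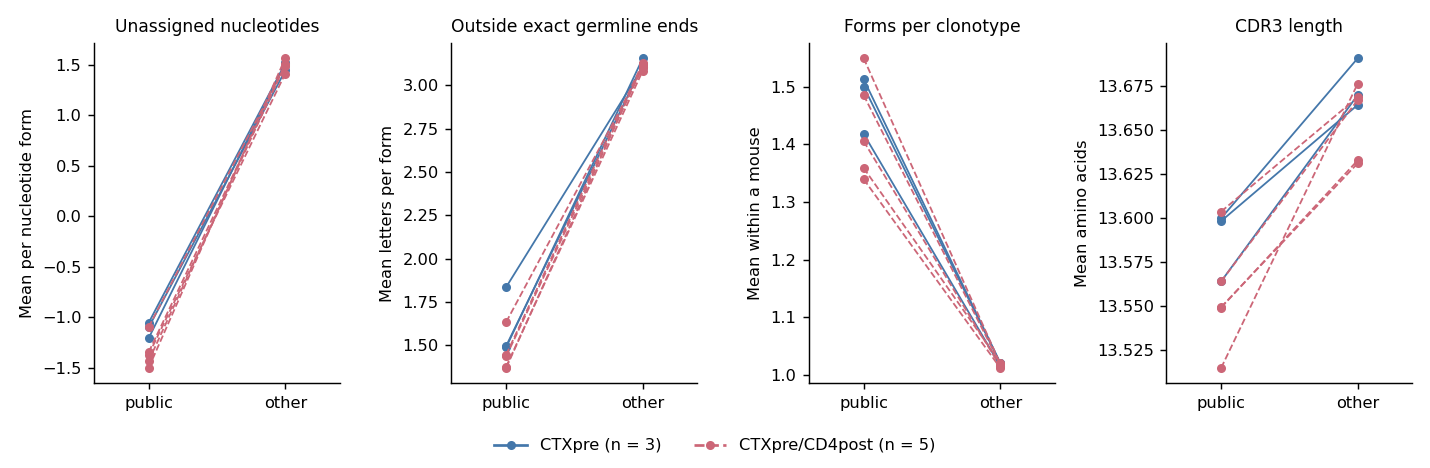
Each line joins the mean of public clonotypes with that of all other clonotypes of the same mouse, solid for 3 CTXpre and dashed for 5 CTXpre/CD4post mice, for unassigned nucleotides per form, letters outside the exact germline ends per form, nucleotide forms per clonotype and CDR3 length in amino acids. The axes do not start at 0, and the difference has the same sign in 8 of 8 mice in each panel, although that of length is only -0.0949 amino acids.

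The CDR3 length of public minus that of other clonotypes was -0.0949 ± 0.0309 amino acids (SD, n = 8 mice), below 0 in 8 of 8 mice (exact two-sided sign-flip test, p = 0.00781, adjusted p = 0.0104). As the mice share the members, this SD and p do not measure the spread over clonotypes. Each counted once, the 138 members had a mean length of 13.58 and the other clonotypes 13.67. Among clonotypes of 2 to 5 reads the difference was -0.0461 in 5 of 8 mice, with p = 0.547 in the same exact test. The size of the difference depended on the definition of members: it was -0.276 with 2 or more reads needed for presence, and -0.248 to -0.0907 with 1 mouse left out and members required in 6 of the 7 others, -0.248 being the value without CTXpre replicate 2. Members ranged from 10 to 17 residues with 45 at 14 residues, and the spread of length was 1.54 residues (SD over the 138 members) against 1.53 over the other clonotypes. The 6 members of 10 residues all came from the TRAV12 family, among them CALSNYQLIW, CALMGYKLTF and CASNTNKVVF, and the 3 of 17 residues joined TRAV12N-3 to TRAJ4 or TRAV16N to TRAJ53. Of all members, 4 ended in a residue other than phenylalanine or tryptophan, and each of these 4 used TRAJ7, whose germline start ends in a leucine codon at this place.

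V and J use is best read with the naming of V copies in view, because mouse TRAV segments lie in duplicated blocks whose copies are nearly identical. As named in the files, TRAV16 gave 40 of the 138 members (29.0%), TRAV12 36 (26.1%), TRAV19 13 (9.42%), and TRAV14 and TRAV6 10 each (7.25%), whereas these families gave 7.25%, 13.9%, 2.07%, 12.8% and 11.1% of all clonotypes. TRAV7, the family of the most clonotypes at 17.8%, gave 9 members (6.52%). When copies were joined by family, 384 of 37801 clonotypes were found in 6 or more mice. TRAV12 then gave the most, 81 (21.1%), followed by TRAV16 with 78 (20.3%), TRAV14 with 74 (19.3%) and TRAV7 with 64 (16.7%), and TRAV19 gave 13 (3.39%). In TRAV19 all reads carry 1 V name and in TRAV16 70.7% carry the leading name of 2, but TRAV7 reads are spread over 13 names, with 21.7% in the leading one, and TRAV14 reads over 9, with 28.6% in the leading one. The order of the families thus changed with the naming. The shares of all clonotypes above are with V as named, and no such share is given for the 37801 joined clonotypes.

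**Figure D3:**
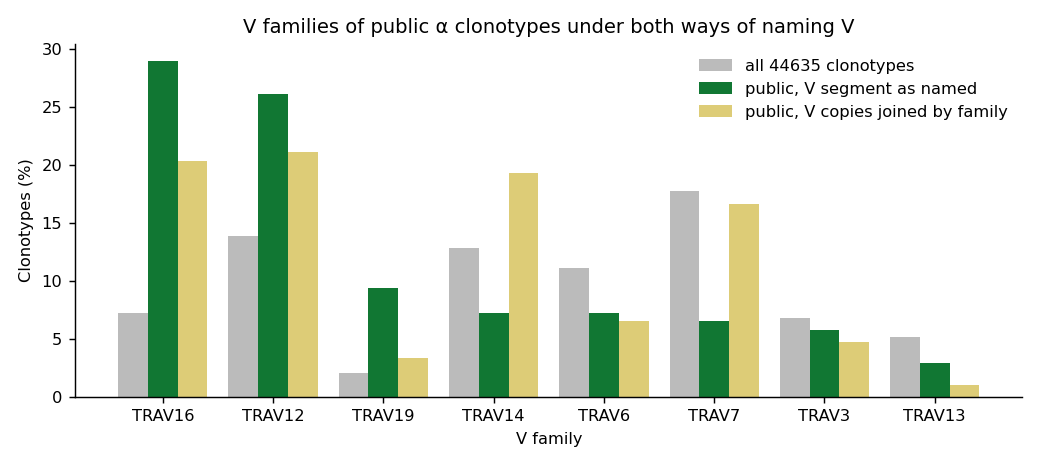
Bars give the percent of clonotypes in each of the 8 V families with the most members. Grey bars are all 44635 α clonotypes and green bars the 138 public clonotypes, both with V as named in the files. Yellow bars are the 384 public clonotypes obtained when V copies are joined by family, for which no share of all joined clonotypes is drawn. TRAV14 goes from 7.25% to 19.3% and TRAV7 from 6.52% to 16.7% when copies are joined, while TRAV19 goes from 9.42% to 3.39%.

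J use also changed when V copies were joined. As named, TRAJ30 gave 18 members (13.04%) and TRAJ22 11 (7.97%), against 4.18% and 5.02% of all clonotypes. They were followed by TRAJ31 with 8 members and by TRAJ15, TRAJ33 and TRAJ37 with 7 each. With V copies joined, TRAJ22 came before TRAJ30, with 47 and 41 of 384 (12.2% and 10.7%), TRAJ26 went from 5 members (3.62%) to 29 (7.55%), and TRAJ37 stayed at 7, or 1.82% in place of 5.07%. The leading forms of 11 of the 18 TRAJ30 members and 6 of the 7 TRAJ33 members needed no letter outside the germline ends. The join with the most members was TRAV12 to TRAJ31, with 7, and the 138 members used 86 different joins of 22 V and 32 J segments. The same CDR3 under 2 V names accounted for 3 pairs of members, among them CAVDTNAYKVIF with TRAV3N-3 and TRAV7D-3.

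TRAJ segments are numbered downwards along the locus towards the constant gene, so a mean TRAJ number tells where along the cluster the joins fell. Public minus other, it differed by -0.685 ± 1.13 (SD, n = 8 mice), below 0 in 5 of 8 mice, and did not pass the test (exact sign-flip test, p = 0.117, adjusted p = 0.117). This result changed with the definition of public clonotypes: for those of 7 or more mice the difference was -3.20, and with V copies joined it was -2.26, each below 0 in 8 of 8 mice (exact sign-flip test, p = 0.00781). With 2 or more reads for presence it was -6.13, with the same exact p. With any 1 of the 8 mice left out and members required in 6 of the 7 others, it was -2.98 to -0.978, with p from 0.0156 to 0.0469 in the exact test.

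Joins that mark other cells the sort could hold were few. The 15-residue TRAV11D–TRAJ18 clonotype, the invariant chain of natural killer T cells, was the sole member among 19 clonotypes with this join. It had 2, 6 and 4 reads in the CTXpre mice and 2, 4, 15, 0 and 1 reads in the CTXpre/CD4post mice, so its groups overlapped, and 15 of the 34 reads came from 1 mouse. Its leading form, shown above, needs no added letter and held 44.1% of the reads. None of the 9 TRAV1–TRAJ33 clonotypes, the join of mucosal-associated invariant T cells, and none of the 416 clonotypes with a TRDV segment was public. Only 3 of all clonotypes had a TRDJ segment, so nearly all of the 416 joined TRDV to TRAJ. Such a join is an α-chain and does not mark a γδ T cell. The TRAV7 family, a candidate V family of the Pmel-1 receptor, gave 9 members with 47, 35 and 50 reads in the CTXpre mice and 45, 48, 24, 49 and 30 in the CTXpre/CD4post mice. The 5 most abundant of them were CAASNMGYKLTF (TRAV7D-2–TRAJ9), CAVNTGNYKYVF (TRAV7N-5–TRAJ40), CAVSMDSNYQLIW (TRAV7-5–TRAJ33), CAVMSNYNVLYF (TRAV7-5–TRAJ21) and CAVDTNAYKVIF (TRAV7D-3–TRAJ30). Whether any is the transgenic chain was not tested.

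The reads that chose the members are given as a description. Public clonotypes held 426, 505 and 548 reads in the CTXpre mice, or 4.26% (Wilson 95% interval 3.88 to 4.67), 5.05% (4.64 to 5.50) and 5.48% (5.05 to 5.94). In the CTXpre/CD4post mice they held 441, 470, 430, 450 and 354 reads, from 3.54% (3.20 to 3.92) to 4.70% (4.30 to 5.13). In bulk RNA, fewer cells of a clonotype and less receptor RNA per cell cannot be told apart. Between 101 and 122 of the 138 members were found in any mouse, and 22 to 45 of these had a lone read.

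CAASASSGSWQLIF (TRAV14N-1–TRAJ22) had 54, 63 and 69 reads in the CTXpre mice and 44, 46, 55, 57 and 34 in the CTXpre/CD4post mice, which overlapped. It was the most abundant α clonotype of every CTXpre mouse, but ranked 5, 1, 5, 3 and 21 in the CTXpre/CD4post mice in the order of their replicate numbers. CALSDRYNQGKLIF (TRAV12N-3–TRAJ23) had 17, 29 and 38 reads against 20, 24, 16, 5 and 9, also overlapping. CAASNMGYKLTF (TRAV7D-2–TRAJ9) had 13, 20 and 7 reads against 16, 13, 15, 15 and 4. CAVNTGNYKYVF (TRAV7N-5–TRAJ40), with 16, 0 and 15 against 12, 15, 2, 10 and 11 reads, was missing from a CTXpre mouse while the other 2 CTXpre mice had 15 and 16 reads. The remaining 3 of the 10 most abundant whose groups overlapped were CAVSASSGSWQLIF (TRAV3N-3–TRAJ22) with 0 to 15 reads, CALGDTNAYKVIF (TRAV6D-6–TRAJ30) with 4 to 11 and CALSDRYSNNRLTL (TRAV12N-3–TRAJ7) with 3 to 14.

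In 4 members, all found in 8 mice, the groups did not overlap. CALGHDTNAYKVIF (TRAV6N-7–TRAJ30) had 2, 2 and 5 reads in the CTXpre mice and 18, 11, 7, 17 and 9 in the CTXpre/CD4post mice, so all 5 of the latter were higher. The more abundant 15-residue TRAV16N–TRAJ22 clonotype had 4, 2 and 4 reads against 8, 8, 8, 14 and 6, again higher in all 5. A less abundant member with the same join and length had 8, 3 and 2 reads against 2, 3, 2, 7 and 5, and its groups overlapped. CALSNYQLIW (TRAV12N-3–TRAJ33) had 10, 8 and 15 reads against 3, 6, 2, 3 and 4, lower in all 5. The 14-residue TRAV19–TRAJ56 clonotype had 15, 11 and 17 reads against 6, 8, 9, 9 and 6, also lower in all 5.

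**Figure D4:**
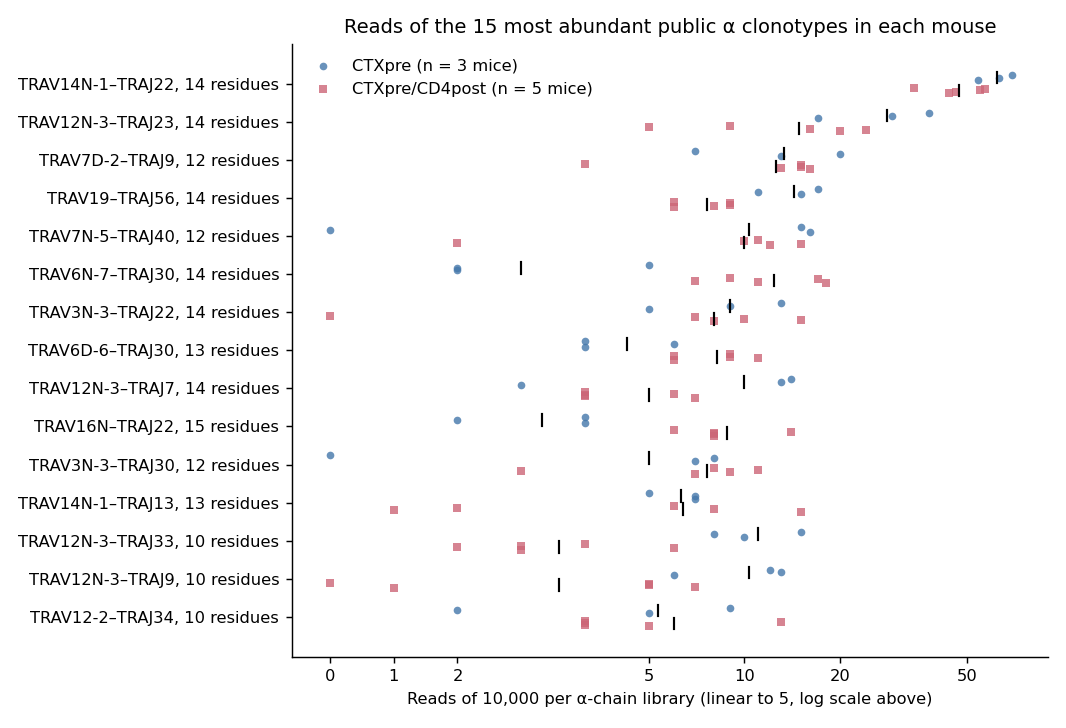
Points give the reads of 10000 in each mouse for the 15 most abundant public clonotypes, named by V segment, J segment and CDR3 length, with circles for 3 CTXpre and squares for 5 CTXpre/CD4post mice and a black bar at each group mean. The scale is linear to 5 reads and logarithmic above, and the groups are apart in 4 rows, those of TRAV19–TRAJ56, TRAV6N-7–TRAJ30, TRAV16N–TRAJ22 and TRAV12N-3–TRAJ33.

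None of the differences in single clonotypes passed the test across all clonotypes. edgeR's quasi-likelihood test was fitted to the 567 α clonotypes with at least 10 reads over the 8 libraries, a filter that 125 of the 138 members passed. At a Benjamini-Hochberg adjusted p under 0.05 it called 0 members higher and 0 lower (percent called among all tested 0% in either direction). At an unadjusted p under 0.05 it gave 0 members and 41 of all 567, and DESeq2 also called 0 members. The smallest adjusted p of a member was 0.422. For the 4 non-overlapping members, log2 fold change ± SE was 2.03 ± 1.78 for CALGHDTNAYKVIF (edgeR adjusted p = 0.556), 1.33 ± 1.80 for TRAV16N–TRAJ22 (0.746), -1.46 ± 1.70 for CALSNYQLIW (0.690) and -0.87 ± 1.53 for TRAV19–TRAJ56 (0.813). The fit shares its spread over all tested clonotypes, of which 153 were found in 1 mouse only, and its common biological coefficient of variation was 1.97. Among all 567 tested, groups did not overlap in 0.529% in the higher direction and in 0.529% in the lower direction, against 2 of 125 members (1.6%) in each. A clonotype must have reads in all 5 CTXpre/CD4post mice to be apart in the higher direction, which 38 of the 567 and 37 of the 138 members had. For the lower direction it must have reads in all 3 CTXpre mice, which 104 of the 567 and 87 of the 138 members had. The rule itself selects for such presence, so these shares do not show an excess of separated groups among members.

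The mean reads were higher in CTXpre/CD4post mice for 61 members, lower for 73 and equal for 4, and the median log2 ratio of group means was -0.12. Of all 567 tested clonotypes, 395 were higher in CTXpre/CD4post mice, and the median log2 ratio was 1.00 with group totals under 3 reads set to 3, whereas among the 125 members tested 58 were higher with a median of -0.15. No read in the CTXpre mice was found for 210 of the tested clonotypes, which by the rule can hold for no member. The filter of 10 reads sums over 3 CTXpre and 5 CTXpre/CD4post libraries, and 153 of the 567 were found in 1 mouse only. A clonotype abundant in a single CTXpre/CD4post mouse can thus pass it. The filter and the rule bear on both counts, so setting them side by side is a description only. Members with 10 or more reads in a mouse numbered 6, 9 and 11 in the CTXpre mice and 8, 8, 6, 10 and 6 in the CTXpre/CD4post mice. Clonotypes outside the public set with 10 or more reads numbered 11, 8 and 4 against 38, 18, 33, 58 and 97. Members accordingly made up 5, 4 and 7 of the 10 most abundant α clonotypes of the CTXpre mice and 1, 2, 1, 1 and 0 of those of the CTXpre/CD4post mice, a comparison made after the data were seen and not tested.

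To compare the groups without using the rule on the mouse that is measured, public clonotypes were also defined for each mouse from the 7 other mice, as those found in 6 or more of them. The 77 to 94 clonotypes so defined held 2.86%, 3.70% and 4.27% of the reads in the CTXpre mice and 3.02%, 3.25%, 3.01%, 3.28% and 2.02% in the CTXpre/CD4post mice. The means were 3.61% ± 0.709 (SD, n = 3) and 2.92% ± 0.516 (SD, n = 5), and the groups overlapped (two-sided exact Mann–Whitney U-test with p = 0.393 and adjusted p = 0.393 over the pair of group tests). The smallest p that 3 mice against 5 allow is 0.0357. For the tests with 1 mouse left out, public clonotypes were those found in 5 or more of the 6 other mice. Without CTXpre/CD4post replicate 2 the difference was -0.729 percentage points in place of -0.694. The exact test gave p = 0.4, where 3 mice against 4 allow no p under 0.0571. Leaving out CTXpre replicate 1 took the difference to -1.05, and leaving out CTXpre replicate 3 took it to -0.324. The exact test gave p = 0.0952 and 0.857, and 0.0952 is the smallest p it allows with a CTXpre mouse left out.

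Of the clonotypes defined from the 7 other mice, 80.2%, 76.9% and 74.1% had at least 1 read in the CTXpre mouse left out, and 69.0%, 79.2%, 74.7%, 60.6% and 62.4% in the CTXpre/CD4post mouse left out. The means were 77.1% ± 3.09 (SD, n = 3) and 69.2% ± 7.92 (SD, n = 5), and the groups overlapped (two-sided exact Mann–Whitney U-test with p = 0.25 and adjusted p = 0.393). With V copies joined by family the difference was -7.93 in place of -7.91 percentage points and the groups did not overlap (p = 0.0357 in the exact test, and 0.0714 after adjustment over the pair of group tests). The number of different clonotypes in a library moved with this share: the CTXpre mice had 7050, 7369 and 6817 and the CTXpre/CD4post mice 5820, 7484, 6561, 5853 and 4947, and the 3 mice with the fewest were the 3 with the lowest detection. Its part in the result was not tested. Without CTXpre/CD4post replicate 2 and with V as named, the difference was -10.2 percentage points, with p = 0.114 in the exact test. The joined naming was not tested without this mouse.

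**Figure D5:**
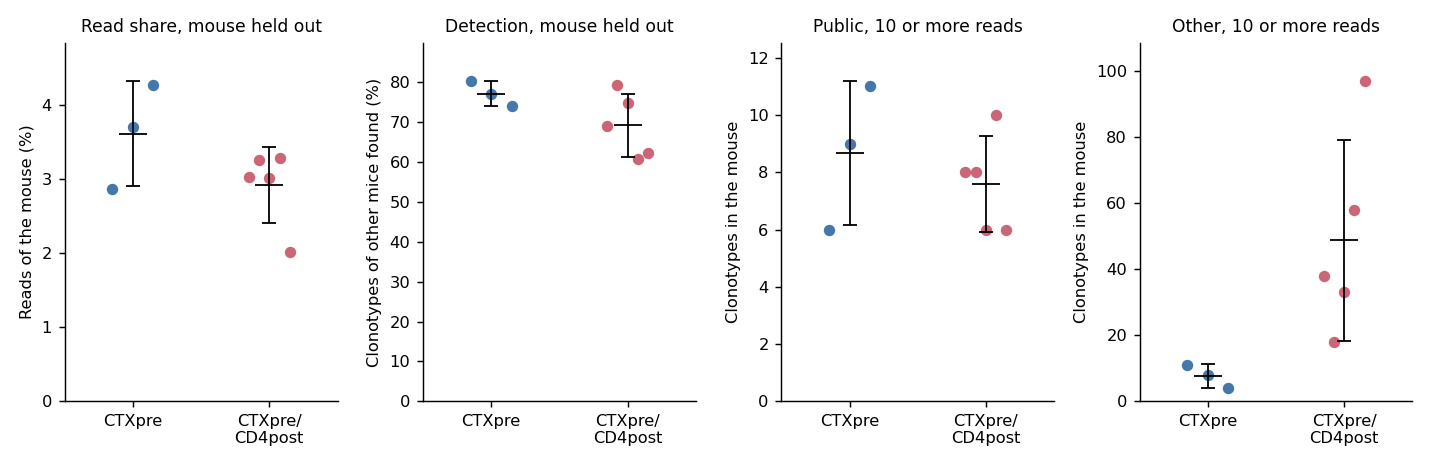
Points are single mice, 3 CTXpre and 5 CTXpre/CD4post, and black bars give the mean ± SD. From left to right the panels show the percent of a mouse's reads in clonotypes found in 6 or more of the 7 other mice, the percent of those clonotypes found in the mouse, and the number of public and of other clonotypes with 10 or more reads, which is 6 to 11 for the public and 4 to 97 for the others.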

How the data were processed

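TCR α-chain reads of sorted en-T cells from 3 CTXpre and 5 CTXpre/CD4post mice were analyzed, with groups and replicate numbers taken from the sample labels. Libraries were made by the authors with a nested PCR on cDNA and read on a MiSeq. They trimmed adapters and low-quality bases, dropped reads under 36 bases, aligned the reads in MiXCR (version and reference not given in the sources used here), and down-sampled each library to 10000 reads with VDJtools. The deposited count is the number of reads of each CDR3 nucleotide sequence, and the deposited fraction is that count divided by 10000 and was not used further. VEnd and JStart are the aligner's positions in the CDR3. The submitters' processing notes name mm10.

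For each mouse, reads with the same CDR3 amino acids, V and J were added. Germline ends were read from GRCm38 with GENCODE vM21 (samtools 1.23.1), taking the best exact match within the V family. Values per mouse were compared by exact Mann–Whitney and sign-flip tests in Python 3.11.15 (numpy 2.4.6, pandas 2.3.3, scipy 1.17.1), and clonotypes of at least 10 reads by edgeR 4.0.16 (R 4.3.3; TMM, quasi-likelihood test, group only) with DESeq2 1.42.0 as an alternative. The steps were tested on simulated data. For edgeR the simulated spread was below that of the fit to these data, so its power here was not measured. Nothing in the labels pairs mice across groups. Named members are the 10 most abundant, any called by edgeR, the member with the most nucleotide forms, the 5 with the most unassigned nucleotides in the leading form, the shortest and longest CDR3, and TRAV11–TRAJ18, TRAV1–TRAJ33 and TRAV7 joins. Members whose groups did not overlap were added after their values were seen. The members and lists were chosen with earlier results of these data known. CDR3s over 14 residues are named by join and length. Alternatives changed the number of mice, the reads needed, the naming of V, the filter, the tool, the block and the mice, and β-chain reads served only for 1 count.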

Additional observations from a re-analysis of the deposited data

Results flagged for a closer look

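In the CTXpre/CD4post group, 3 of the 19 measures examined for a sample standing apart had such a sample, where chance gives about 1 in 20. The share of reads in clonotypes found in 6 or more of the other mice was 2.02% in replicate 5, with a gap to the next mouse of 0.786 of the range of the 5 mice. The same mouse had 4 reads of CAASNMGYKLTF (TRAV7D-2–TRAJ9), against 13 to 16 in the 4 others. The more abundant 15-residue TRAV16N–TRAJ22 clonotype had 14 reads in replicate 4, against 6 to 8 in the others. Replicate 5 also had the fewest different clonotypes, 4947, and the most clonotypes of 10 or more reads outside the public set, 97. The part of either in its low share was not tested.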

How the results depend on the processing

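The lower number of unassigned nucleotides kept its direction and its side of the threshold under all 18 alternatives (from -4.99 to -1.26 with other settings and from -3.14 to -2.81 with 1 mouse left out), as did the higher number of nucleotide forms under all 14 (0.319 to 0.774 and 0.499 to 0.543). The difference in CDR3 length was -0.248 to -0.0907 with 1 mouse left out, and -0.0461 with p = 0.547 (exact sign-flip test) in clonotypes of 2 to 5 reads. The difference in TRAJ number passed the threshold for clonotypes of 7 or more mice (-3.20), with 2 or more reads for presence (-6.13), with V copies joined (-2.26), and with each mouse left out in turn (-2.98 to -0.978), where 6 of the 7 mice left were needed. With 1 mouse left out, both held-out measures took clonotypes found in 5 or more of the 6 other mice. The held-out share then differed by -1.05 to -0.324 percentage points. It turned to 0.0951 when each clonotype counted once whatever its reads, a setting chosen after the data were seen (p = 0.143, exact Mann–Whitney U-test). The cause was not tested. Held-out detection differed by -10.2 to -6.29 with 1 mouse left out and by -7.93 with V copies joined, where p = 0.0357 (exact test) passed the threshold before but not after adjustment (0.0714). edgeR called 0 members under every alternative.

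With the replicate number as a block (replicates 1 to 3), the share differed by -0.517 (p = 0.5) and detection by -2.79 (p = 1) in exact tests over 3 pairs, where the smallest p is 0.25, and edgeR called 0 of 97 members and 7 of 304 clonotypes. For each member, log2 of the reads plus 1 was taken as a deviation from the mean of the mouse's own group. These deviations, not the reads themselves, correlated at 0.00714, -0.00111 and 0.0521 between same-numbered mice over the 138 members. By this measure, 2 of 3 CTXpre mice correlated best with their own number. Correlations over so few reads cannot tell whether same-numbered mice share more than a number. At 10000 reads, a clonotype with 0 reads may still be in the mouse and presence can rest on a lone read, so the count of mice depends on depth.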
